A study of Mus musculus with 32 samples.

Results

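Transcripts of the epidermal growth factor (EGF) receptor family and its ligands were followed in the epidermis of 32 mice. The 10 genes examined were 6 ligands (Areg, Ereg, Hbegf, Tgfa, Epgn and Btc), 3 receptors (Egfr, Erbb2 and Erbb3) and the receptor inhibitor Errfi1. They were matched by symbol among the 55401 genes of the count tables, and each symbol gave a unique Ensembl identifier. All 10 passed the filter on low counts, and their lowest count in any mouse was 115 reads, for Areg.

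Each library was made from the dorsal epidermis of 1 mouse of mixed SKH-1/SV129/BL6/J background, aged 10 to 14 weeks. Wild-type mice (WT) and littermates lacking the nuclear receptor PPARbeta (KO, PPARD-/-) were either exposed on the back to a dose of 120 mJ/cm2 from a UV lamp (UV) or sham-handled (Control). The labels place the UV samples 24 h after exposure and mark the Control samples with time 0. The lamp emitted mostly UVB, and SKH-1 is a hairless stock. Every combination of genotype, treatment and sex held 4 mice. The labels give no promoter or cell type for the deletion, so it is not described as limited to keratinocytes.

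EGF receptor ligands are made as membrane-anchored precursors and released by proteases of the ADAM family, after which they bind receptors on the same or neighbouring cells. Areg, Tgfa and Epgn products bind the receptor encoded by Egfr, and those of Ereg, Hbegf and Btc bind it and also the ErbB4 receptor. The Erbb2 product has no known soluble ligand and signals as a partner in heterodimers, and the Erbb3 product binds neuregulins and has little kinase activity of its own. Bound receptors activate the RAS-ERK and PI3K cascades, and Errfi1 (also called Mig6) encodes an adaptor that binds the active kinase domain and inhibits it. In epidermis this pathway is known for driving keratinocyte proliferation and migration during wound repair.

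On GRCm38, 4 of the ligand genes lie side by side on chromosome 5 within 375.5 kb. From left to right they are Epgn (chr5:91027464-91035215, plus strand), Ereg (chr5:91074622-91093646, plus), Areg (chr5:91139599-91148432, plus) and Btc (chr5:91357261-91402994, minus). Tgfa is on chromosome 6, Errfi1 on chromosome 4, Erbb3 on chromosome 10, and Egfr and Erbb2 on chromosome 11. RefSeq (GRCm38.p6) gave promoter windows for 7 of the 10 genes. The windows of Areg and Epgn are printed because these neighbouring ligands were among the members that rose most, and the window of the more downstream of the 2 Errfi1 starts because it shares its elements with Areg. Each reads 5′ to 3′ on the plus strand. The Areg and Epgn windows end at the base before the gene in GENCODE M21. The Errfi1 window ends before its RefSeq start, inside the GENCODE M21 span of Errfi1 (chr4:150853919-150868892). The bases just after that start were not found in a GENCODE M21 transcript of Errfi1. Capitals mark matches to the motifs that were looked up.
Areg (chr5:91139349-91139598, 250 bases): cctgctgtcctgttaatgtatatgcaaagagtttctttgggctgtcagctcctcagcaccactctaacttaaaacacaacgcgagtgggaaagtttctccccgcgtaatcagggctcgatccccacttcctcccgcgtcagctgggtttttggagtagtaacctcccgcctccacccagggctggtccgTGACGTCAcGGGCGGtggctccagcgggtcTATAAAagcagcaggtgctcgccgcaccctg
Errfi1 (chr4:150854820-150855069, 250 bases): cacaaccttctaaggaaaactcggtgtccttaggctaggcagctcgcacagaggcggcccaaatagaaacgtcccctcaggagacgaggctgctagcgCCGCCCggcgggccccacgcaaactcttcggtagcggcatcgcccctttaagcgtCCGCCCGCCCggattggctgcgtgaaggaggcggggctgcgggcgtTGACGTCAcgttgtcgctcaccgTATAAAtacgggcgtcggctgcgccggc
Epgn (chr5:91027267-91027463, 197 bases): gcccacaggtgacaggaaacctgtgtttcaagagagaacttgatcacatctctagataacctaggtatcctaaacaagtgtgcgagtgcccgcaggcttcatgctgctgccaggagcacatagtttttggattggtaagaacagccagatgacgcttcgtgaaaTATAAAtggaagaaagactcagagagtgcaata

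The Areg window held the cAMP response element TGACGTCA at 61 to 54 bases before the start, a GC box (GGGCGG) at 52 to 47 bases and a TATA box (TATAAA) at 31 to 26 bases. The Errfi1 window held the same cAMP response element at 51 to 44 bases before the start and a TATA box at 28 to 23 bases, with 3 GC boxes on the opposite strand, of which the nearest pair overlap. Of that Errfi1 window, 124 of 250 bases lie in exons of 1700045H11Rik, an antisense gene. The Epgn window held a TATA box 86 bases before the RefSeq start, and 53 bases that GENCODE M21 places inside an Epgn exon were left off. Both strands were searched over 250 bases, with these shares of 32851 RefSeq windows of the same length. The cAMP response element was in 1.55% of windows, the TATA box in 12.4% and the GC box in 32.7%. In the windows of Tgfa, Btc, Egfr, Erbb2 and the other Errfi1 start, only GC boxes of Tgfa and Egfr were found. None of the 8 windows of these genes held an AP-1 site (TGANTCA, 6.75% of all windows), an E-box (CACGTG, 6.02%) or the direct-repeat-1 element of PPAR receptors (0.0335%). A match describes the letters and does not show that a factor binds there.

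The libraries held 22919428 to 40653581 reads on genes (median 27600228.5). Levels are given as cpm, a gene's reads relative to all reads on genes of the library, scaled by the trimmed mean of M-values (TMM). Differences are log2 fold changes from edgeR's quasi-likelihood test with their standard error (SE), and a gene was called at a Benjamini-Hochberg adjusted p under 0.05 over 15546 genes. Keratinocyte markers were high in every mouse, with summed levels of at least 5933 cpm for 8 basal and 11368 cpm for 9 suprabasal genes, while 2 of 8 melanocyte markers (Tyr and Sox10) stayed under 1 cpm in all mice. The melanocyte sum ran from 3.502 to 21.7 cpm, and 2 of its 6 tested genes were called higher with UV in each genotype. Some libraries carried markers of deeper tissue. The summed level of 6 skeletal muscle genes exceeded 1000 cpm in 9 mice of all 4 conditions, and that of 8 dermal fibroblast genes was 2387 cpm in the UV-exposed KO female 54F against at most 112.3 cpm elsewhere. The summed neutrophil and monocyte markers went from medians of 94.6 (WT) and 90.6 (KO) to 887.6 and 823.8 cpm with UV, and the suprabasal sum went from a median of 77188 to 23931 cpm in WT and from 84599 to 24067 cpm in KO mice. The basal sum went from a median of 12241 to 22759 cpm in WT and from 9945 to 26818.5 cpm in KO mice. Of the 8 basal genes, 3 were called higher and 3 lower with UV in WT and 5 higher and 1 lower in KO mice. The part of these cells in the results was not tested, except where values without such mice are given. In whole epidermis, fewer cells of a type and less RNA per cell cannot be told apart.

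The genotype labels could not be checked on the total reads of Ppard, the gene that encodes PPARbeta. Its level without UV was 70.2 to 88.8 cpm in KO and 87.2 to 104.8 cpm in WT mice (log2 difference −0.26, adjusted p = 0.156). After UV it was 174.5 to 238.5 cpm in KO and 251.9 to 325.6 cpm in WT mice (−0.42, adjusted p = 0.00114). Reads from the undeleted part of the locus are counted in such a total, and which exons were deleted is not given in the sources used here. KO therefore stands below for the mice labelled so.

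Ordered per length of exon, the receptor genes Erbb3 and Erbb2 led before UV and a ligand led after it. The length is that of all annotated exons of a gene joined, not of the transcript present, and the order depends on it. By cpm alone, the WT Control median of Egfr (164.5) was above those of Errfi1 (122.2) and Ereg (88.6). In WT Control mice, Erbb3 (median 62.8 cpm per kb of exon) and Erbb2 (61.98) stood above all other members and overlapped each other. Errfi1 (34.1), Ereg (21.5), Epgn (18.4), Tgfa (17.6) and Egfr (14.5) followed, each overlapping the next of these 5. Btc (6.84), Areg (5.52) and Hbegf (3.96 cpm per kb) came last, below all Egfr values, and overlapped in turn. In UV-exposed WT mice Epgn stood apart at the top with a median of 447.4 cpm per kb. Hbegf (87.9), Errfi1 (82.8), Areg (75.7) and Tgfa (61.3) then overlapped in turn, and Tgfa did not overlap Erbb3 (44.1 cpm per kb) below it. Erbb2 (39.2) and Ereg (39.1) followed, with Egfr (17.8) and Btc (2.67 cpm per kb) each apart at the end. The order in KO mice placed Epgn (387.3 cpm per kb) apart at the top after UV as well.

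**Figure D1:**
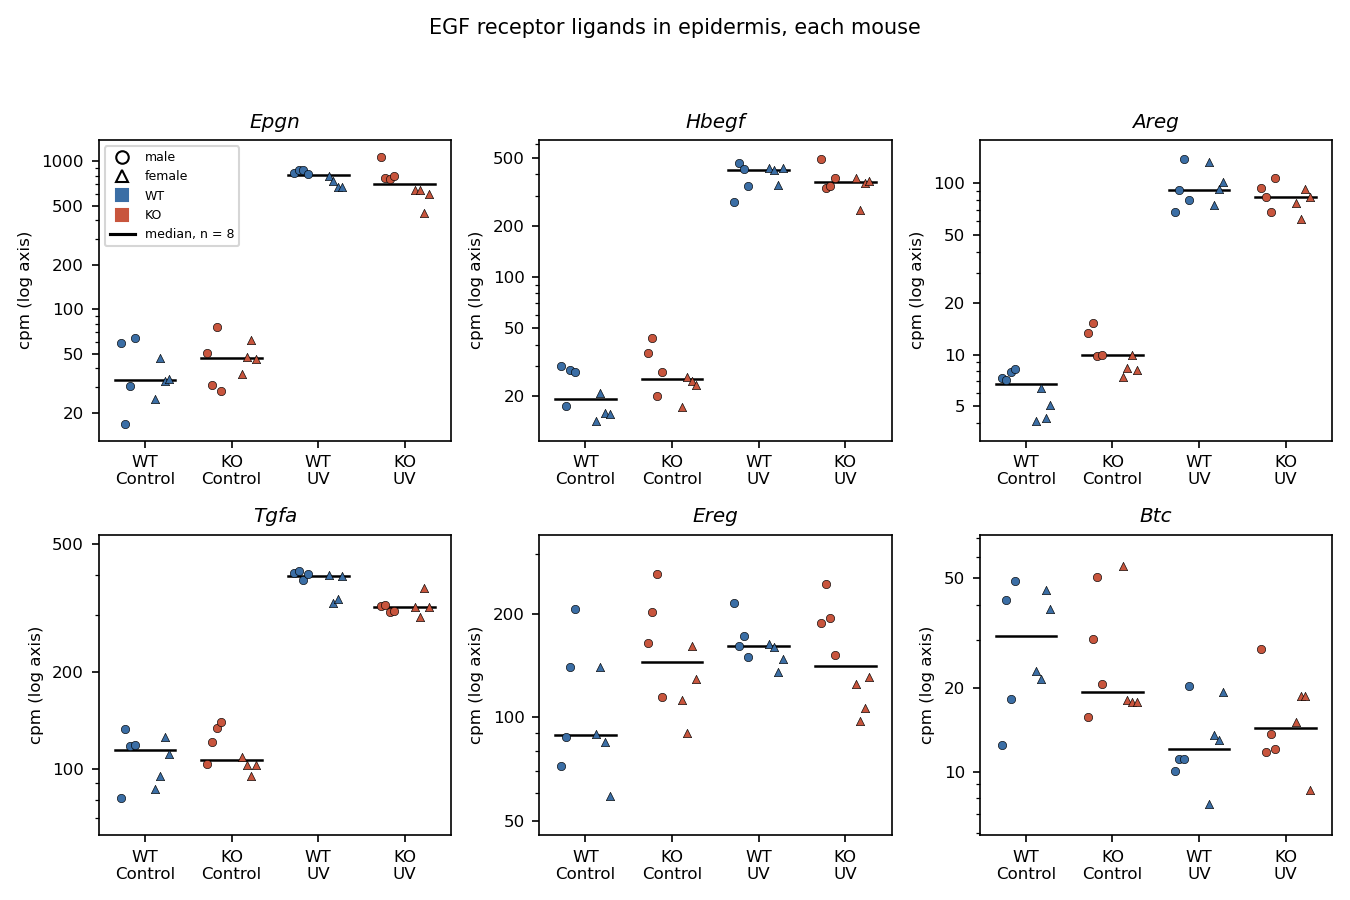
Levels of the 6 ligand genes in each mouse, in TMM-scaled cpm on log axes, by genotype and treatment, with circles for males, triangles for females and a line at the median of 8 mice. Epgn, Hbegf, Areg and Tgfa of all UV-exposed mice lie above all Control mice of the same genotype, whereas Ereg and Btc overlap.

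The comparison of UV-exposed with Control mice asked how the family responded a day after exposure in each genotype. Epgn, Hbegf and Areg rose most, 8.22-fold to 20.3-fold, and Tgfa and Errfi1 rose 2.22-fold to 3.54-fold in the 2 genotypes. Erbb2, Erbb3 and Btc fell in both. In WT mice 7 members were called higher and 3 lower, where 34.5% and 36.5% of all genes tested were called in these directions. In KO mice 5 were called higher and 3 lower, against 37.3% and 33.5% of all genes. UV-exposed and Control mice did not overlap for 7 members in WT and 6 in KO mice, against 43.4% and 35.1% of all genes. The median log2 fold change of the members was 0.95 in WT and 0.59 in KO mice, beside −0.014 and 0.088 for all genes tested.

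Epgn, which encodes epigen, reached the highest level of the ligands. It ran from 16.9 to 64.4 cpm (median 33.3) in WT Control mice and from 670.0 to 876.7 cpm (median 808.4) in UV-exposed WT mice. In KO mice it ran from 28.1 to 76.4 cpm (median 46.7) without UV and from 445.5 to 1071 cpm (median 699.9) after UV. Every UV-exposed mouse stood above every Control mouse in both genotypes. The log2 fold change was 4.35 (SE 0.24, adjusted p = 5.12e-15) in WT and 3.90 (SE 0.23, adjusted p = 3.42e-14) in KO mice.

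Hbegf, on chromosome 18, encodes heparin-binding EGF-like growth factor, a ligand with a heparin-binding stretch. Its levels were 14.2 to 30.2 cpm (median 19.1) in WT Control and 275.8 to 466.5 cpm (median 424.7) in UV-exposed WT mice. In KO mice they were 17.1 to 43.6 cpm (median 25.2) and 246.5 to 489.1 cpm (median 361.1). The groups did not overlap within either genotype. Hbegf changed by 4.24 on the log2 scale (SE 0.17, adjusted p = 7.47e-18) in WT and by 3.75 (SE 0.16, adjusted p = 5.15e-17) in KO mice.

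Areg encodes amphiregulin, the ligand called between genotypes without UV and in its change with UV. WT Control levels were 7.25, 7.07, 7.88 and 8.28 cpm in males and 4.09, 6.34, 4.26 and 5.11 cpm in females. KO Control levels were 13.3, 15.3, 9.84 and 10.0 cpm in males and 7.44, 8.36, 9.94 and 8.08 cpm in females. Within each sex all KO mice were thus above all WT mice, where 5.23% of all genes did not overlap between genotypes in males and 1.79% in females, but KO females overlapped WT males. After UV, Areg was 68.1, 91.8, 138.0 and 80.0 cpm in WT males and 133.1, 74.4, 92.2 and 102.5 cpm in WT females. In KO mice it was then 93.6, 83.1, 68.2 and 107.1 cpm in males and 76.5, 62.2, 92.9 and 83.1 cpm in females. Genotypes overlapped after UV in both sexes, and UV-exposed mice did not overlap Control mice. The log2 fold change with UV was 3.99 (SE 0.16, adjusted p = 7.49e-18) in WT and 3.04 (SE 0.15, adjusted p = 6.89e-16) in KO mice.

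Tgfa encodes transforming growth factor alpha, a ligand that keratinocytes themselves make. Its level was 80.7 to 132.6 cpm (median 114.0) in WT Control and 326.5 to 411.4 cpm (median 397.7) in UV-exposed WT mice. The KO values were 95.02 to 139.4 cpm (median 106.1) and 295.9 to 365.1 cpm (median 317.9). Neither genotype showed overlap between treatments. Tgfa rose by 1.82 (SE 0.09, adjusted p = 2.72e-16) in WT and 1.503 (SE 0.09, adjusted p = 1.18e-14) in KO mice on the log2 scale.

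Ereg, the gene for epiregulin, varied widely among Control mice. It spanned 58.99 to 207.8 cpm (median 88.6) in WT Control and 135.8 to 215.2 cpm (median 161.5) in UV-exposed WT mice. In KO mice it spanned 90.2 to 262.9 cpm (median 145.5) without and 97.8 to 245.8 cpm (median 141.4) with UV. Treatments overlapped in both genotypes. The change was called in WT mice (0.58, SE 0.19, adjusted p = 0.00841) and not in KO mice (−0.02, SE 0.19, adjusted p = 0.942). The difference between these changes was not called (−0.60, adjusted p = 0.221).

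Btc, which encodes betacellulin, was the ligand that fell. Its levels were 12.5 to 49.1 cpm (median 30.9) in WT Control and 7.66 to 20.4 cpm (median 12.1) in UV-exposed WT mice. In KO mice they were 15.8 to 55.5 cpm (median 19.5) and 8.59 to 27.8 cpm (median 14.4), so that the treatments overlapped in both genotypes. It fell by 1.24 (SE 0.32, adjusted p = 0.00121) in WT and 0.84 (SE 0.32, adjusted p = 0.0207) in KO mice on the log2 scale. The KO call was lost without the Control mouse 44F, whose 55.5 cpm stood far above the other KO Control females (−0.54, adjusted p = 0.11), or without the Control mouse 52M (−0.69, adjusted p = 0.0548).

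**Figure D2:**
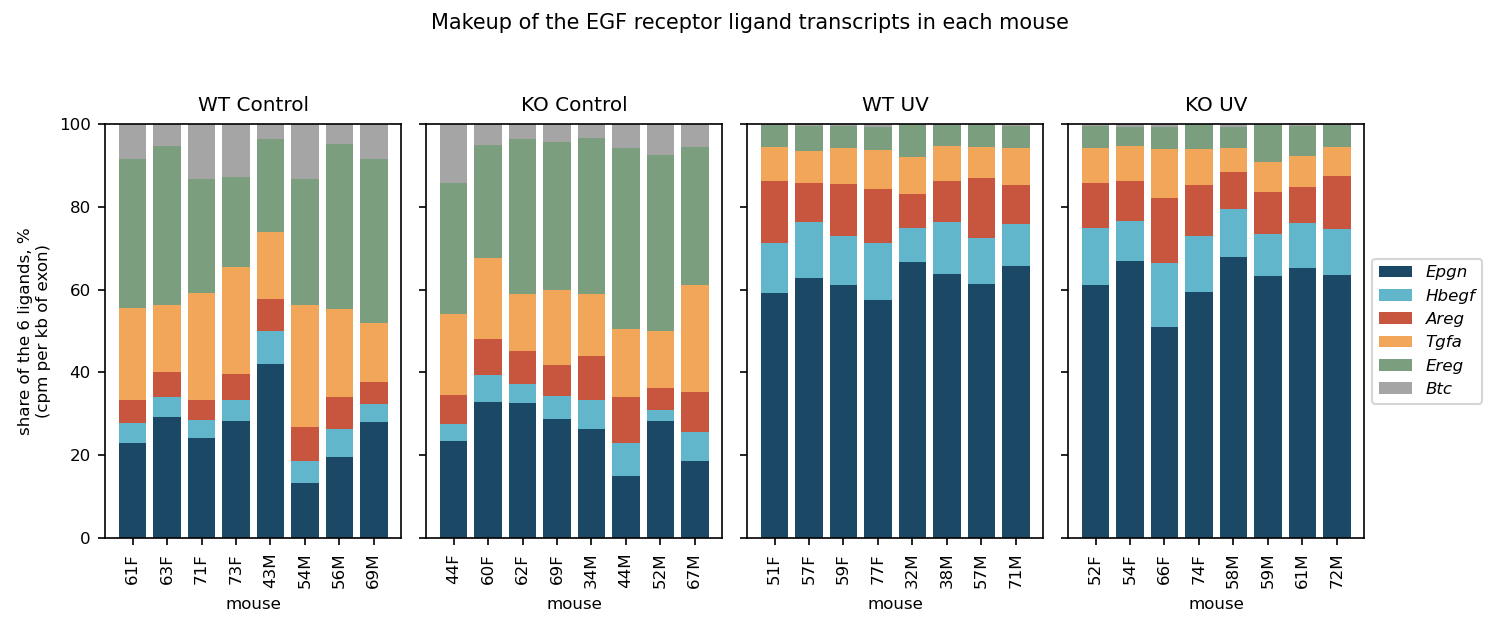
Share of each ligand in the summed level of the 6 ligands per mouse, in percent of cpm per kb of exon, with 1 bar per mouse and 1 panel per genotype and treatment. Ereg, Epgn and Tgfa make up most of the bars of Control mice, and Epgn takes the larger part of every bar after UV, from 51.05% to 67.9%.

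The makeup of the ligand transcripts differed between Control and UV-exposed mice. Summed per length over the 6 ligands, the level was 60.1 to 127.6 cpm per kb in WT Control and 606.7 to 790.8 in UV-exposed WT mice. It was 80.1 to 150.1 cpm per kb in KO Control and 483.0 to 872.1 in UV-exposed KO mice. Ereg held a median of 33.2% of this sum in WT Control and 36.5% in KO Control mice, and 5.39% and 5.31% after UV. The share of Epgn was 26.1% and 27.3% without UV and 62.1% and 63.3% after UV, with no mouse of a Control group reaching the lowest UV-exposed mouse. In WT mice the Areg share had medians of 6.10% and 11.2% and overlapped between treatments, and the Hbegf share, at 4.91% and 12.0%, did not. Tgfa went from 21.7% to 8.44% and Btc from 8.51% to 0.393% of the sum in WT mice. These shares are descriptions without a test, and they must add up, so a larger share of Epgn lowers the others. They also rest on the joined exon lengths described above.

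**Figure D3:**
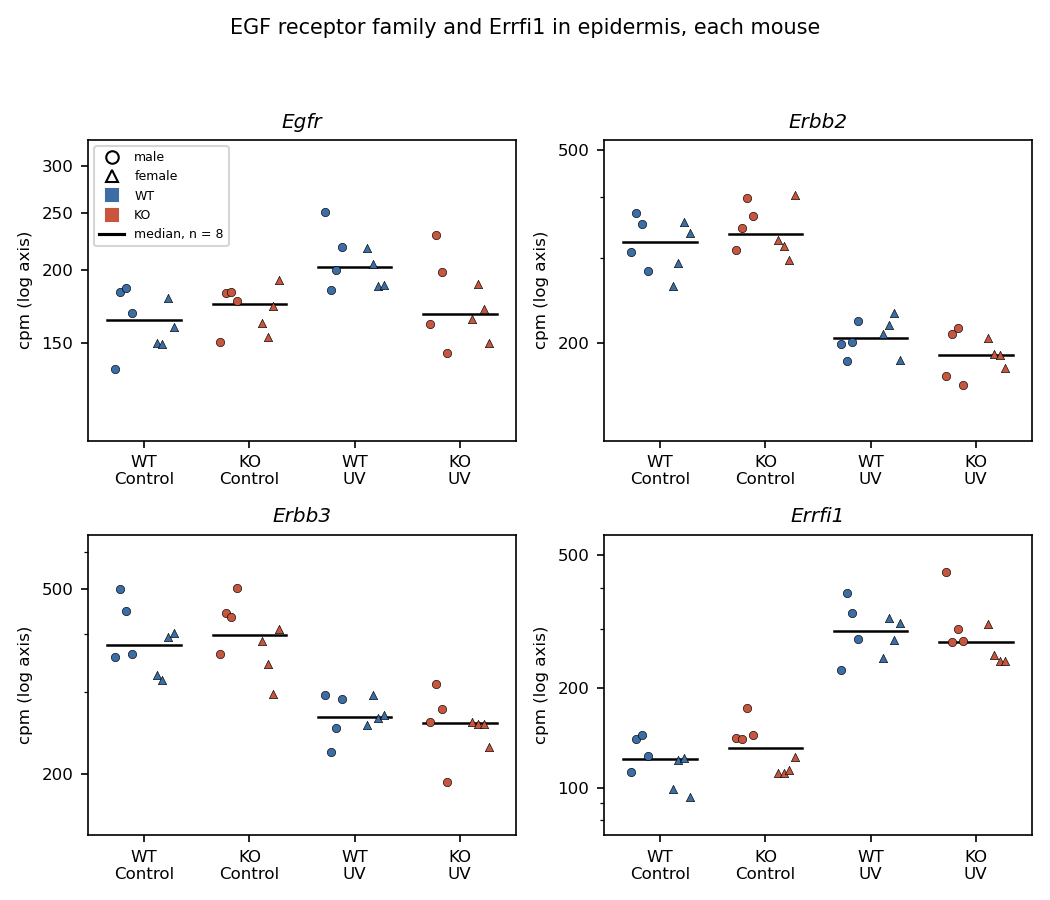
Levels of Egfr, Erbb2, Erbb3 and Errfi1 in each mouse, in TMM-scaled cpm on log axes, drawn as for the ligands. Erbb2 lies lower and Errfi1 higher in all UV-exposed mice than in Control mice of the same genotype, and Egfr overlaps in both genotypes.

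Among the receptors, Egfr and its partners moved in opposite directions in WT mice. Egfr, the receptor of all 6 ligands, was at 135.7 to 186.2 cpm (median 164.5) in WT Control and 184.4 to 250.8 cpm (median 202.0) in UV-exposed WT mice. In KO mice it was at 150.6 to 192.3 cpm (median 175.0) and 144.5 to 229.3 cpm (median 168.2). Treatments overlapped in both genotypes. Egfr rose by 0.33 on the log2 scale in WT mice (SE 0.09, adjusted p = 0.00132), and the value in KO mice was 0.04 (SE 0.09, adjusted p = 0.726). The difference between the genotypes' changes was not called (−0.29, adjusted p = 0.186).

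Erbb2 spanned 262.5 to 370.9 cpm (median 322.9) in WT Control and 183.1 to 230.2 cpm (median 204.5) in UV-exposed WT mice. KO levels were 296.8 to 403.9 cpm (median 335.6) and 163.3 to 214.5 cpm (median 189.0). No UV-exposed mouse reached a Control mouse. Erbb2 fell by 0.64 (SE 0.08, adjusted p = 6.27e-08) in WT and 0.86 (SE 0.08, adjusted p = 2.37e-10) in KO mice on the log2 scale.

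Erbb3, the neuregulin receptor, showed the same direction. It was at 318.8 to 498.3 cpm (median 378.1) in WT Control and 222.9 to 296.0 cpm (median 265.0) in UV-exposed WT mice. In KO mice it was at 297.2 to 502.5 cpm (median 397.8) and 192.0 to 311.6 cpm (median 257.2). The groups stood apart in WT mice and overlapped in KO mice. Erbb3 fell by 0.53 (SE 0.10, adjusted p = 1.49e-05) and 0.64 (SE 0.10, adjusted p = 1.16e-06) on the log2 scale.

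Errfi1, the inhibitor, ran from 93.8 to 144.7 cpm (median 122.2) in WT Control and from 225.9 to 386.2 cpm (median 296.7) in UV-exposed WT mice. KO levels ran from 110.5 to 173.8 cpm (median 132.0) and from 239.9 to 444.0 cpm (median 275.3). Both genotypes showed no overlap between treatments. Errfi1 rose by 1.32 (SE 0.11, adjusted p = 1.6e-11) in WT and 1.15 (SE 0.11, adjusted p = 2.68e-10) in KO mice on the log2 scale. Several members overlap genes on the other strand. Errfi1, Egfr and Ereg overlap genes annotated as antisense (1700045H11Rik, Egfros and Gm19610), and Erbb2 overlaps the coding gene Mien1. The library kit marks strand, but whether the counter used it is not given in the sources used here.

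**Figure D4:**
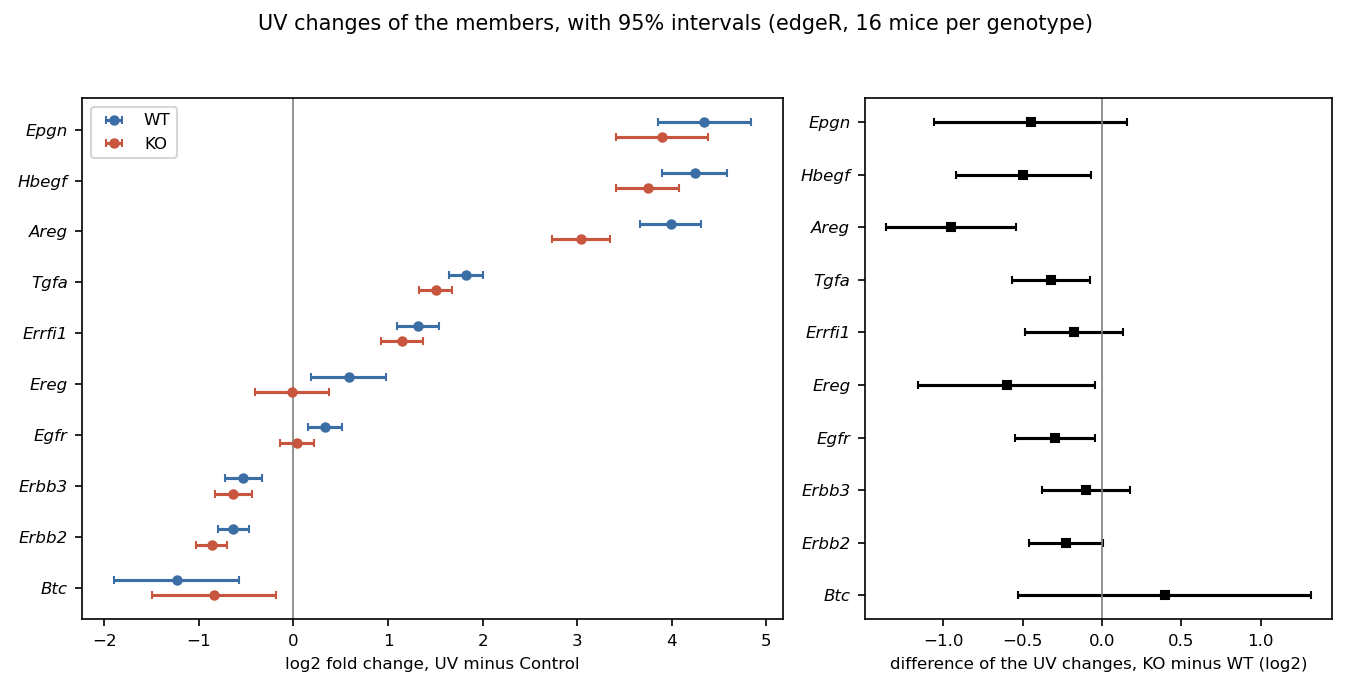
Log2 fold change with UV of the 10 members in WT and KO mice (left) and the difference between these changes, KO minus WT (right), each with its 95% interval from edgeR. On the right, 9 of 10 points lie below 0 and the interval of Areg, from −1.36 to −0.54, is the farthest from it.

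The genotype comparisons asked whether the family differed between mice labelled WT and KO. They share samples with the comparisons of UV above, so their values are set side by side and are not independent. Of the 32 genes called between genotypes without UV, 13 lie on chromosome 17, as does Ppard. Which part of a genotype difference goes with the loss of PPARbeta itself was not tested. Without UV, Areg was the member called, higher in KO mice by 0.72 on the log2 scale (SE 0.15, 95% interval 0.42 to 1.02, adjusted p = 0.0233), against 0.206% of all genes called. Ereg (0.48, adjusted p = 0.457) and Hbegf (0.37, adjusted p = 0.455) did not pass the adjustment, though their unadjusted intervals, 0.08 to 0.87 and 0.07 to 0.68, lay above 0, and 8.52% of all genes passed an unadjusted p under 0.05. The 95% intervals of Tgfa (−0.11 to 0.23), Egfr (−0.11 to 0.24), Erbb2 (−0.05 to 0.28), Erbb3 (−0.16 to 0.23) and Errfi1 (−0.08 to 0.35) included 0. Epgn (−0.14 to 0.73) and Btc (−0.79 to 0.50) were wider. The Areg call was lost in 7 of 32 fits that each left out 1 mouse (adjusted p up to 0.0734, without the WT Control female 61F), with library totals in place of TMM (adjusted p = 0.0815) and without the 9 mice high in muscle markers (0.81, adjusted p = 0.17).

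After UV, none of the 10 members was called between genotypes by edgeR, against 3.31% of all genes, and 2 passed an unadjusted p under 0.05, against 20.1% of all genes. These were Tgfa (−0.26, SE 0.08, adjusted p = 0.0783), lower in KO mice, and Egfr (−0.23, SE 0.09, adjusted p = 0.132). DESeq2 called Tgfa (adjusted p = 0.0263) and limma-trend called no member. Within a sex, some ligands stood apart between genotypes after UV, each lower in KO mice. Tgfa in males was 387.1 to 411.4 cpm in WT and 307.6 to 322.7 cpm in KO mice. In females, Ereg was 135.8 to 163.7 and 97.8 to 131.2 cpm, and Epgn 670.0 to 791.6 and 445.5 to 640.4 cpm. In the other sex these genes overlapped. The share of all genes that did so after UV is not given here. The Areg difference after UV was −0.23 (95% interval −0.51 to 0.05, adjusted p = 0.365), opposite in sign to that without UV. All 8 dermal fibroblast markers were called higher in KO mice after UV, with a summed level of 2387 cpm in 54F beside a median of 12.7 cpm over the 8 mice. Without that mouse Tgfa was at −0.25 (adjusted p = 0.128) and Egfr at −0.27 (adjusted p = 0.108).

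The change with UV differed between genotypes for Areg, where 0.765% of all genes were called. Its rise was smaller in KO than in WT mice by 0.95 on the log2 scale (difference −0.95, SE 0.20, adjusted p = 0.0193). That difference joins a higher level in KO mice without UV (0.72) and a level after UV that overlapped WT mice (−0.23, not called). It was called in all 32 fits that left out 1 mouse, with values from −1.03 to −0.85 and adjusted p from 0.00909 to 0.0402. Within the sexes the value was −0.77 in males (adjusted p = 0.56) and −1.13 in females (adjusted p = 0.0611), and without the 9 mice high in muscle markers −1.02 (adjusted p = 0.0876). For 9 of the 10 members, all but Btc, the change was lower in KO mice, and 5 passed an unadjusted p under 0.05 (Areg, Ereg, Hbegf, Tgfa and Egfr), against 19.6% of all genes. Beside Areg, the smallest adjusted p was that of Tgfa (−0.32, adjusted p = 0.143). Hbegf was at −0.50 (adjusted p = 0.188) and Epgn at −0.45 (95% interval −1.06 to 0.16, adjusted p = 0.415).

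Male and female mice were compared over both genotypes. In Control mice Areg was lower in females by 0.57 on the log2 scale (female minus male −0.57, SE 0.15, adjusted p = 0.0199) and Hbegf by 0.56 (−0.56, SE 0.15, adjusted p = 0.0242), against 6.86% of all genes called. With library totals in place of TMM neither was called (adjusted p = 0.0727 and 0.0767). The Hbegf call was lost in 5 of 32 fits without 1 mouse, and the Areg call in 1, without 61F (adjusted p = 0.0578). Both calls were lost without the 9 mice high in muscle markers, at −0.55 for Areg (adjusted p = 0.147) and −0.58 for Hbegf (adjusted p = 0.0859). The Control mice among these 9 were all females (44F, 60F, 63F and 71F). That fit therefore had fewer Control females and the same Control males. Errfi1 was at −0.32 (adjusted p = 0.0662).

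After UV, no member differed between the sexes by edgeR's test, where 3.03% of all genes were called, and 1 passed an unadjusted p under 0.05 (Ereg, −0.48, adjusted p = 0.145), against 20.4% of all genes. DESeq2 and limma-trend called none. Areg and Hbegf were then at −0.04 each (adjusted p = 0.917 and 0.921). Epgn was at −0.40 (adjusted p = 0.283), yet within each genotype all males lay above all females after UV. WT males spanned 825.3 to 876.7 cpm and WT females 670.0 to 791.6 cpm. KO males spanned 759.3 to 1071 cpm and KO females 445.5 to 640.4 cpm. Ereg stood apart likewise in KO mice (151.7 to 245.8 and 97.8 to 131.2 cpm) and overlapped in WT mice. The other members overlapped in both genotypes. The share of all genes that stood apart between the sexes is not given here. The change with UV was not called as different between the sexes for any member, and edgeR called 0% of all genes in that comparison. Areg (0.54, adjusted p = 0.591) and Hbegf (0.53, adjusted p = 0.631) passed an unadjusted p under 0.05, as did 7.02% of all genes, and DESeq2 and limma-trend called no member.

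Other ligands and receptors of the wider ErbB family were read beside the 10 members. Nrg1, which encodes neuregulin 1, a ligand of the Erbb3 product, went from 0.159 to 1.60 cpm in WT Control to 43.9 to 88.3 cpm in UV-exposed WT mice. In KO mice it went from 0.108 to 1.10 cpm to 53.8 to 82.6 cpm, again without overlap. The log2 fold changes were 6.75 (SE 0.34, adjusted p = 1.09e-15) in WT and 7.07 (SE 0.35, adjusted p = 8.63e-16) in KO mice. Nrg2, a related neuregulin gene, moved the other way, with WT levels of 6.11 to 10.8 cpm without and 0.690 to 1.89 cpm with UV (−2.84, adjusted p = 4.67e-12). Its KO value was −2.85 (adjusted p = 5.43e-12). Egf itself was low, with WT medians of 1.92 cpm without and 0.381 cpm with UV (−1.41, adjusted p = 0.00499). Nrg4 fell in WT mice (−1.33, adjusted p = 0.00764) and was at −0.31 in KO mice (adjusted p = 0.528). The WT call of Egf was lost in males only (−1.39, adjusted p = 0.0514) and that of Nrg4 in females only (−1.16, adjusted p = 0.0983). The fourth receptor gene, Erbb4, did not exceed 0.231 cpm and Nrg3 did not exceed 0.0535 cpm in any mouse, so neither was tested.

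**Figure D5:**
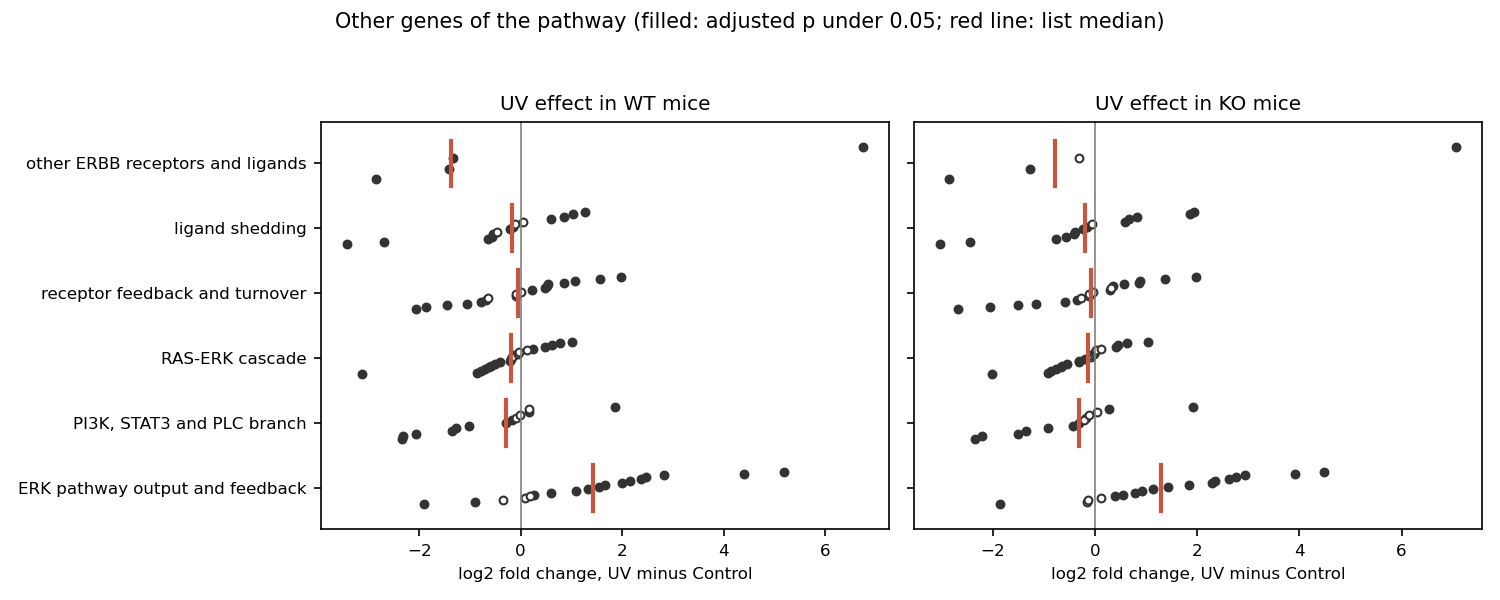
Log2 fold change with UV of the tested genes in 6 lists of the pathway, in WT (left) and KO mice (right), with 1 point per gene, filled where the adjusted p was under 0.05, and a red line at the list median. The list of ERK outputs has its median to the right of 0 in both genotypes, at 1.43 and 1.29.

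Genes that release the ligands and 4 further lists of the pathway were counted against the same shares of all genes called, 34.5% higher and 36.5% lower in WT and 37.3% and 33.5% in KO mice. Of 14 genes of ligand shedding, 4 were called higher and 7 lower in WT mice and 5 higher and 8 lower in KO mice, with a median of −0.18 in WT beside −0.014 over all genes. Adam19, a protease of the ADAM family, fell by 3.42 (adjusted p = 1.43e-13) and Rhbdl2, a rhomboid protease, by 2.69 (adjusted p = 6.09e-12) on the log2 scale in WT mice. Timp3, an inhibitor of metalloproteases, rose by 1.27 (adjusted p = 0.000813) and Spint1, an inhibitor of serine proteases, by 1.04 (adjusted p = 2.63e-13). Adam19 was the gene of this list called between genotypes after UV (0.99 higher in KO, adjusted p = 0.0139). In UV-exposed females it was 3.18 to 11.7 cpm in KO and 1.27 to 1.69 cpm in WT mice. In UV-exposed males Adam19 overlapped between genotypes, at 1.03 to 2.40 cpm in KO and 1.56 to 2.03 cpm in WT mice. Its KO level was highest in 54F at 11.7 cpm, and without that mouse the difference was 0.66 (adjusted p = 0.0258). Without the 9 mice high in muscle markers it was 0.58 (adjusted p = 0.203).

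Regulators of the receptors were counted next, whether they lower or raise receptor activity. Of 18 genes of receptor feedback and turnover, 8 were called higher and 6 lower in WT and 7 higher and 6 lower in KO mice. The endocytic adaptor gene Sh3gl2 (−2.06, adjusted p = 8.85e-14) and Lrig3, of a family of transmembrane regulators of these receptors (−1.86, adjusted p = 1.17e-12), fell most in WT mice. Socs5, which encodes an adaptor that promotes receptor degradation (1.98, adjusted p = 4.65e-20), and Hgs, of endosomal sorting (1.55, adjusted p = 9.69e-15), rose most.

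Downstream, the kinase cascade and its outputs were counted apart. Of 20 genes of the RAS-ERK cascade, 5 were called higher and 11 lower in WT and 4 higher and 10 lower in KO mice, with a WT median of −0.19. The adaptor gene Gab2 (−3.12, adjusted p = 5.72e-14) and the kinase gene Araf (−0.79, adjusted p = 1.5e-11) fell most in WT mice. The kinase gene Map2k1 rose most (1.01, adjusted p = 1.82e-09). Of 13 genes of the PI3K, STAT3 and PLC branch, 2 were called higher and 8 lower in each genotype. Pik3r2 (−2.33, adjusted p = 2.78e-18) and Pik3r3 (−2.32, adjusted p = 2.64e-13), which encode regulatory subunits of PI3K, fell most, and the kinase gene Src rose (1.85, adjusted p = 3.35e-14). Of 18 outputs and feedback genes of the ERK pathway, 13 were called higher and 2 lower in WT and 14 higher and 1 lower in KO mice. Fosl1, which encodes an AP-1 subunit, went from a median of 3.88 to 182.3 cpm (5.18, adjusted p = 7.28e-12) and Phlda1 from 6.26 to 134.1 cpm (4.41, adjusted p = 6.22e-17) in WT mice. Spry1, which encodes a Sprouty feedback inhibitor, fell by 1.90 (adjusted p = 4.95e-14).

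Gab2 was the other pathway gene called between genotypes, and its calls depended on the mice and settings. After UV it was higher in KO mice by 0.89 (adjusted p = 0.0129), and its fall with UV was smaller there by 1.09 (adjusted p = 0.0376). Its KO level after UV was highest in 54F at 9.30 cpm, and without that mouse these values were 0.74 (adjusted p = 0.0339) and 0.94 (adjusted p = 0.0623). The range in the other UV-exposed KO mice was 1.84 to 6.22 cpm, against 1.42 to 3.04 cpm in UV-exposed WT mice. By sex, UV-exposed females were at 4.09 to 9.30 cpm in KO and 1.42 to 1.84 cpm in WT mice. UV-exposed males overlapped, at 1.84 to 2.65 cpm in KO and 1.56 to 3.04 cpm in WT mice. As given for Adam19, Langerhans cell and endothelial marker sums were also higher in KO than in WT females after UV. The part of these cells in the Gab2 difference was not tested. The call on the difference of the UV changes was lost in 15 of 32 fits without 1 mouse (0.937 to 1.24, adjusted p up to 0.0749). It was also lost with no filter on low counts (1.04, adjusted p = 0.0742), in males only (0.151, adjusted p = 0.942) and without the 9 mice high in muscle markers (0.964, adjusted p = 0.0823). Without those 9 mice the difference after UV was 0.64 (adjusted p = 0.182).

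The members' patterns over the 32 mice were compared with those of all genes tested by Pearson's r of log2 cpm, as a description that mostly reflects the shared difference between UV-exposed and Control mice. The genes most like Areg were Hbegf (r = 0.990), Bod1 (0.985) and Actg1 (0.983), and those most like Hbegf were Bod1, Areg and Dusp6 (each 0.990). Epgn was most like Plet1 (0.984), Ehd1 and Rgs2 (each 0.983), and Tgfa most like Sowahb, Pls3 and Tnfrsf23 (each 0.981). Errfi1 was closest to Coq10b (0.983), Prkx and Fam8a1 (each 0.980). Erbb2 was closest to Celsr2 (0.973), Mark2 (0.971) and Casp2 (0.969), and Erbb3 to Acvr1b (0.947), Nbr1 (0.946) and Irak2 (0.945). Likeness was lower for Egfr, with Tjp1 (0.889), Ern1 (0.864) and Scaf11 (0.857) closest. It was lower again for Ereg, with Arl5b (0.839), Herc4 (0.794) and Mpzl3 (0.748), and for Btc, with Nipa2 (0.833), Ccdc126 (0.824) and Arsa (0.802).

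Among the members, much of this likeness was absent once the means of the 8 groups were taken out. Areg and Hbegf had r = 0.990 over all mice and 0.651 within groups, whereas Areg and Tgfa had 0.963 and 0.010, and Hbegf and Tgfa 0.962 and −0.267. Within groups the receptors varied together, with r of 0.774 for Erbb2 and Erbb3, 0.750 for Egfr and Erbb3 and 0.644 for Egfr and Erbb2. Tgfa and Btc reached 0.536 within groups although they changed in opposite directions with UV. These values rest on 32 mice that share library scaling, and no p is given for them.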

How the data were processed

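RNA sequencing of the epidermis of 32 mice was analysed from 32 tables of read counts per gene. According to the submitters' processing notes, the authors used bcl2fastq, cutadapt 1.8, STAR 2.5.3a and HTSeq 0.9.1 on GRCm38. The deposited values are raw counts, whole numbers without normalization. Reads without a gene (6.80% to 9.75% of uniquely aligned reads) and multiply aligned reads do not enter the values. Symbols, positions and exon lengths came from GENCODE M21 (GRCm38), which holds 55141 of the 55401 identifiers. No pair of mice of 1 group was alike within sampling noise (chi-square per degree of freedom 21.2 to 148, 48 pairs).

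The 15546 genes that reached 1 cpm in any mouse were fitted with 8 group means (genotype, treatment, sex) in edgeR 4.0.16 after TMM scaling, in R 4.3.3. Contrasts averaged both sexes or both genotypes. Intervals are 95% and use the fit's degrees of freedom, log2 cpm uses a prior count of 1, and the procedure was tested on simulated data. The genes, the lists and the comparisons were chosen with earlier results of these data known. From each pathway list the text names the 2 largest rises and falls in WT mice that passed an adjusted p under 0.05 without overlap, and genes called between genotypes, except for a gene that is not reported here. Alternatives were RLE scaling, library totals, DESeq2 1.42.0, limma-trend 3.58.1, no filter, filterByExpr, fits within a sex or genotype, and leaving out each mouse. The sex differences within a treatment and the fit without 9 mice high in muscle markers were added after the data were seen. Promoter windows are from RefSeq (GRCm38.p6).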

Additional observations from a re-analysis of the deposited data

Results flagged for a closer look

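Of 88 groups of 4 mice (11 genes in 8 groups), 10 held a mouse set apart from the other 3 by a gap beyond Dixon's 95% criterion, where chance gives about 4.4. The UV-exposed KO male 58M accounted for 3 of them, with Btc at 27.78 cpm (others 11.8 to 13.7), Epgn at 1071 cpm (759.3 to 795.1) and Errfi1 at 444 cpm (274.5 to 300.2). Its summed skeletal muscle markers were 1277 cpm. The KO Control female 44F had Btc at 55.5 cpm (17.8 to 18.2), with muscle markers at 2277 cpm, and the UV-exposed WT male 71M had Btc at 20.38 cpm (10.03 to 11.1), with muscle markers at 6.28 cpm. Errfi1 was high in the KO Control male 52M at 173.8 cpm (140.0 to 144.2) and in the UV-exposed KO female 52F at 310.8 cpm (239.9 to 250.02), with muscle markers at 20.9 and 1915 cpm. Low values were those of Erbb3 in the UV-exposed KO female 74F at 228.8 cpm (255.9 to 258.9), Hbegf in the UV-exposed WT female 59F at 347 cpm (422.6 to 434.2) and Ppard in the UV-exposed KO female 54F at 174.5 cpm (228 to 238.5). The part of the muscle markers in these values was not tested.

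The change with UV differed between genotypes by a test of the difference for Areg (−0.9498, adjusted p = 0.0193) and for Gab2 (1.094, adjusted p = 0.0376), as log2 values of KO minus WT. The Gab2 call was lost in 15 of 32 fits without 1 mouse, with no filter on low counts, in males only and without the 9 mice high in muscle markers.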

How the results depend on the processing

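The number of members called with UV stayed at 10 in WT and 8 in KO mice or within 1.5 times of it under every alternative, and the called UV changes of the members kept their direction. The call was lost for Ereg in WT males only (adjusted p = 0.143) and for Btc in KO males only (0.105), KO females only (0.111) and KO mice without the 9 mice (0.0715). Beside the members, Egf in KO mice lost its call in females only (−0.937, adjusted p = 0.184). The genotype call of Areg without UV went to 0 members with library totals and without the 9 mice high in muscle markers, and ranged from 0 to 1 when 1 mouse was left out. After UV, DESeq2 and filterByExpr called 1 member (Tgfa) in place of 0, and leaving out 1 mouse gave 0 to 1. For the difference of the UV changes, the males only, the females only and the fit without the 9 mice called 0 members in place of 1. The sex difference without UV went from 2 members to 0 with library totals, with no filter on low counts and without the 9 mice, and ranged from 0 to 5 without 1 mouse.

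Signs turned for values that were not called. The Ereg change in KO mice was 0.0152 with limma-trend and 0.066 in males only, and ran from −0.11 to 0.080 without 1 mouse. That of Egfr in KO mice was −0.00216 with no filter, −0.000405 with filterByExpr, −0.0122 in females only and −0.0152 without the 9 mice, and ran from −0.033 to 0.085 without 1 mouse. Nrg4 in KO mice was at 0.011 without the 9 mice. Without UV and with library totals, the genotype difference was −0.00835 for Tgfa, −0.00563 for Egfr and −0.0395 for Erbb3. Without 1 mouse these ran from −0.0037 to 0.11 for Tgfa, from −0.45 to 0.020 for Btc and from −0.0029 to 0.084 for Erbb3. After UV, Btc was at −0.0861 without the 9 mice and Errfi1 ran from −0.17 to 0.016 without 1 mouse. The sex difference after UV was 0.0464 with library totals and 0.0524 without the 9 mice for Areg (−0.12 to 0.074 without 1 mouse), and 0.0435 and 0.154 for Hbegf (−0.11 to 0.026). Besides these, 932 of 973 values of single genes under alternatives kept both direction and side of the threshold, and 3370 of 3424 without 1 mouse. The cause of these changes was not tested, beyond the fewer mice or genes that an alternative left.

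Over all genes, calls between genotypes without UV went from 32 to 78 with DESeq2 and 18 without the 9 mice. After UV they went from 514 to 1116 with DESeq2, 260 with limma-trend, 263 with no filter and 26 without the 9 mice. For the difference of UV changes they went from 119 to 777 with DESeq2, 55 with no filter, 12 in males, 39 in females and 30 without the 9 mice. Without 1 mouse these 3 counts ran from 20 to 45, 133 to 983 and 56 to 346, those of the sex differences from 467 to 1752 without and 117 to 1043 after UV, and sex-by-UV calls from 0 to 1. Calls in the sex-by-UV comparison were 22 with DESeq2 and 2 with limma-trend in place of 0. Sex differences went from 1066 without UV to 1676 with DESeq2, 653 with filterByExpr, 327 with no filter and 226 without the 9 mice. After UV they went from 471 to 853 with library totals, 1196 with DESeq2, 239 with no filter and 26 without the 9 mice. No paired analysis was possible because each mouse, named by a number with a sex letter, belongs to 1 group, and where a number recurs in another group it carries the other letter and the labels tie it to no litter or batch. Every member had at least 115 reads in each mouse, and the 4 mice per group limit the differences that can be called.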
